A study of Caenorhabditis elegans with 48 samples.

Results

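The 10 genes described here code for RNA-binding proteins that the mother supplies to the oocyte and early embryo of the nematode Caenorhabditis elegans. They were chosen by name for that role, as 10 of the 44968 genes in each table, and comprise oma-1 (C09G9.6), oma-2 (ZC513.6), pos-1 (F52E1.1), mex-5 (W02A2.7), mex-6 (AH6.5), pie-1 (Y49E10.14), mex-3 (F53G12.5), spn-4 (ZC404.8), puf-3 (Y45F10A.2) and puf-5 (F54C9.8). All 10 passed the filter on low counts, which left 16987 genes for testing. As a share of the library, mRNA of 7 of the 10 genes was called lower at 192 h than at -2 h, and none higher. Of all genes tested, 35.5% were called lower and 31.1% higher. The -2 h libraries precede the start of hatching, so this span covers hatching as well as starvation. The call of puf-5 was lost under part of the alternative settings. pos-1 and spn-4 fell the most, by 2.00 and 2.27 on the log2 scale, to 4.25 and 2.66 CPM (counts scaled to a common library total).

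Oocytes and early embryos make little or no mRNA of their own, and proteins of this kind decide which stored maternal mRNAs are translated, where, and when they are destroyed. OMA-1, OMA-2, POS-1, MEX-5, MEX-6 and PIE-1 carry CCCH zinc fingers, MEX-3 a pair of KH domains, SPN-4 an RNA recognition motif, and PUF-3 and PUF-5 the repeats of the Pumilio and FBF family. In the embryo several of them are segregated to the blastomeres that will form the germ line, and many maternal mRNAs are cleared from somatic cells after the first divisions while germ-line precursors keep them.

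All 48 libraries were poly(A) RNA of whole animals of the wild-type strain N2, kept in the salt buffer S-basal without food after embryos had been freed from fed mothers with hypochlorite. Animals that hatch without food stop at the first larval stage (L1 arrest), and the labels place 0 h at the start of hatching, 12 h after the hypochlorite step. The 12 time points began at -2 and 0 h, came every 2 h up to 6 h, went on at 9, 12, 24 and 48 h, and ended with 96, 192 and 288 h. Each had 4 biological replicates, numbered 1, 5, 6 and 8. All groups were kept without food, so no fed group was available for comparison. The -2 h group was collected before the start of hatching, so differences from it span the step from embryo to larva. Per the study's methods, 3 of the replicates came from a single culture each and 1 combined several cultures. Samples drawn from the cultures were pelleted, and the protocol names no step that separates larvae from unhatched embryos or from dead larvae. More larvae were collected at 192 h, and more again at 288 h, to allow for deaths, per the study's methods. All libraries carry the same label for stage, L1 larvae, including those from -2 h. In whole animals, fewer cells of a type and less RNA per cell cannot be told apart, and CPM is a share of the library, not an amount per animal.

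Genes received 10164115 to 15962842 counts per library. Ribosomal RNA genes took 46.4% of them in 1 library of -2 h (replicate 6) and 27.4% in 1 library of 24 h (replicate 8), against at most 9.31% elsewhere. Levels are CPM on library totals scaled by TMM (trimmed mean of M values), and results were also computed without those 2 libraries. The 10 genes had 6 to 858 counts in any library, so the less abundant among them rest on few reads. Larval tissue markers were found at every time point: 10 genes of muscle, gut, neurons, pharynx and epidermis summed to 5230 CPM ± 709 (SD, n = 4) at -2 h, 10815 CPM ± 611 at 24 h and 578 CPM ± 58.6 at 288 h. The muscle gene unc-54 alone held 3523, 9287 and 187 CPM of these sums, so they do not describe each tissue. From -2 h to 288 h elt-7 rose from 5.34 to 17.3 CPM and pha-4 went from 138 to 141 CPM, while the other markers were lower at 288 h. 6 sperm genes summed to 4.11 CPM ± 1.47 at -2 h. 6 vitellogenin genes, the yolk protein genes of adult hermaphrodites, summed to 14.3 CPM ± 3.71 at -2 h, 5.87 CPM ± 1.94 at 24 h and 39.4 CPM ± 13.8 at 288 h. Most of the last value was vit-6 (2.68 CPM at -2 h, 30.4 CPM at 288 h). vit-1 went the other way, from 8.62 CPM at -2 h to 0.958 CPM at 192 h and 1.75 CPM at 288 h. Its log2 fold change from -2 h to 192 h was -3.16 (FDR 9.67e-10). The summed vitellogenin list thus did not serve as a marker of adults in these larvae.

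**Figure D1:**
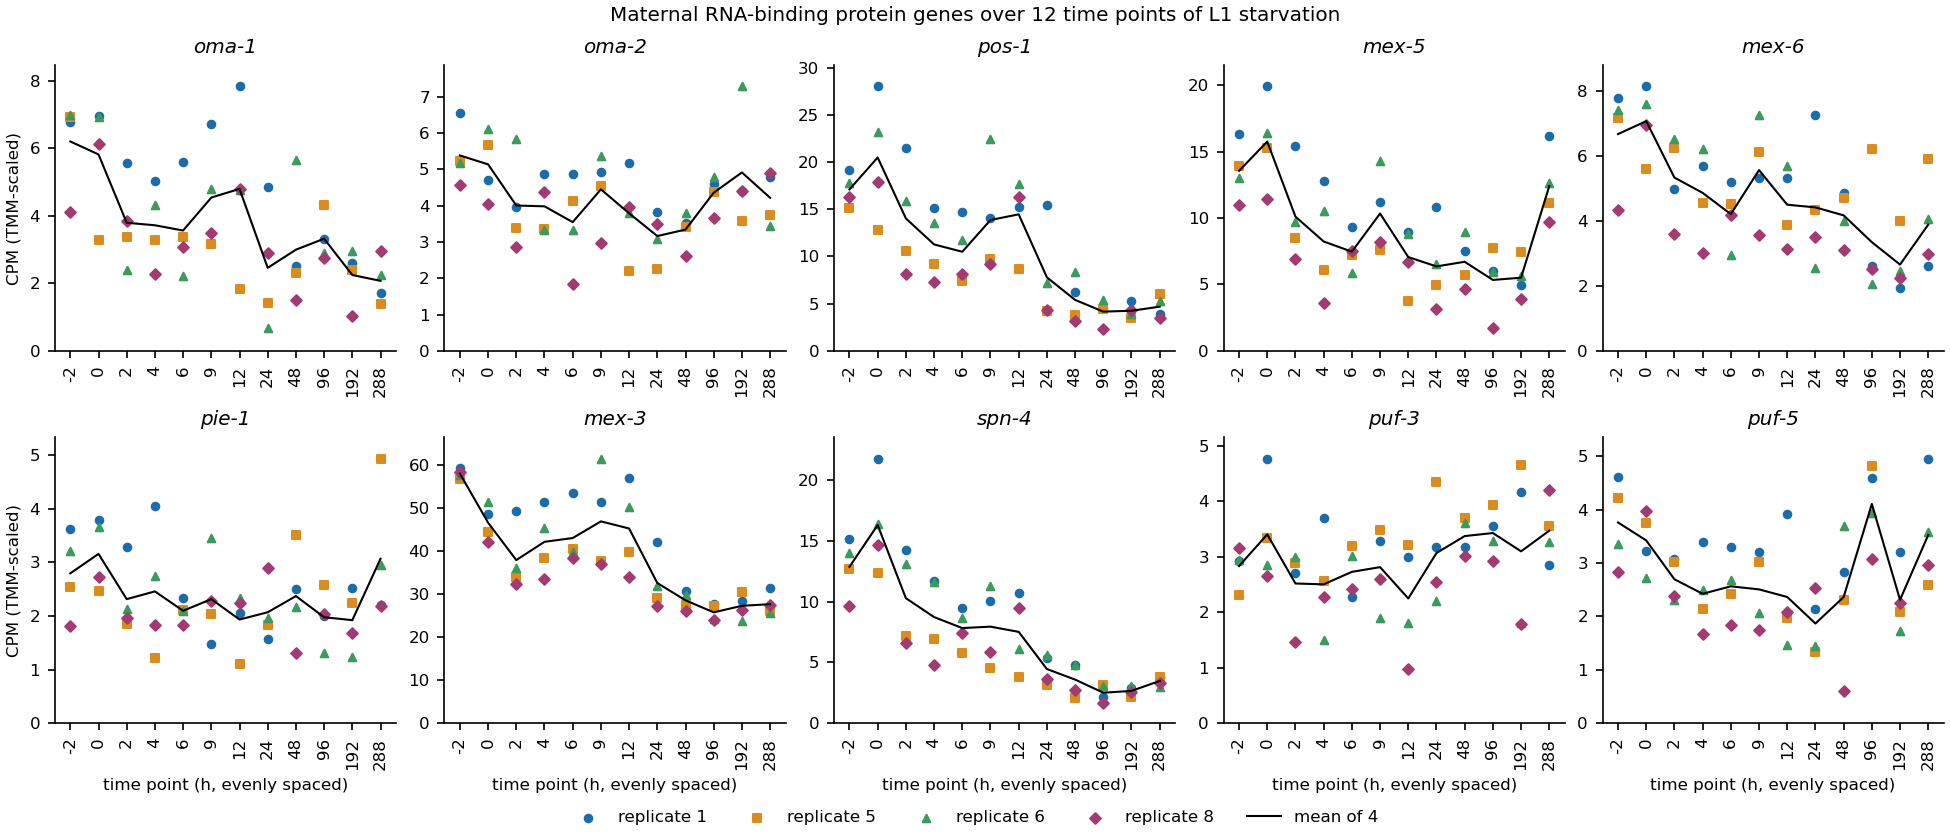
Level of each of the 10 genes in all 48 libraries (vertical axis, TMM-scaled CPM, starting at 0) against time point in hours (evenly spaced, not to scale), with 1 point per library and the mean of the 4 replicates as a line. mex-3 runs from 58 CPM at -2 h to 27.2 CPM at 192 h, pos-1 and spn-4 end far below their start, and puf-3 stays between 2.25 and 3.47 CPM on average.

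Compared per length (CPM per kilobase of exon in the current annotation), mex-3 had the highest level at -2 h, at 28.4 ± 0.548 (SD, n = 4). pos-1 followed at 15.3 ± 1.59, spn-4 at 8.45 ± 1.57 and mex-5 at 6.87 ± 1.11. spn-4 and mex-5 overlapped within 1 SD of each, and so did mex-6 (3.52 ± 0.833), oma-2 (3.48 ± 0.539) and oma-1 (3.44 ± 0.779). The lowest levels per kilobase were those of pie-1 (2.51 ± 0.711), puf-5 (1.82 ± 0.393) and puf-3 (1.63 ± 0.21). At 192 h mex-3 still had the highest level per kilobase, 13.3 ± 1.43, and pos-1 was next at 3.81 ± 0.684. The other 8 genes lay between 1.12 and 3.18 CPM per kilobase, with oma-2 at the top of them and spn-4 down at 1.74 ± 0.257.

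A change at any point over the 12 time points was tested with edgeR's likelihood ratio test, adjusted over all genes (false discovery rate, FDR). It was called at an FDR under 0.05 for 7 of the 10 genes, against 84.9% of all genes tested, so the share called was no larger than that of genes in general. spn-4 had the smallest value (FDR 5.45e-30), followed by mex-3 (8.93e-22) and pos-1 (9.51e-20). oma-2 (FDR 0.0764), pie-1 (0.344) and puf-3 (0.536) did not pass. With the replicate number as a block 8 genes were called, oma-2 among them (FDR 0.0125), against 89.7% of all genes. oma-2 also passed with RLE factors (0.0455, 8 genes called) and without scaling factors (0.00712, 9 genes called), where pie-1 passed as well (0.0497). The shares over all genes under these other factors are not given here, so the counts cannot be set against them. The call of mex-6 (FDR 0.000487) was lost without replicate 6, at an FDR of 0.054, and that of puf-5 (0.00443) without replicate 5, at 0.288.

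The comparison of 192 h with -2 h spans hatching and the arrest up to the last time point before 288 h. With edgeR's quasi-likelihood test in a fit of all 48 libraries, 7 of the 10 genes were lower at 192 h, 0 were higher and 3 did not pass. Of all genes tested, 66.7% were called, 35.5% as lower and 31.1% as higher. The median log2 fold change of the 10 genes was -1.19, against -0.05 over all genes. Without scaling factors the median of all genes moved to -0.33 and the share of calls that were higher went from 46.7% to 35.3%, and the same count of 7 genes was then called. Under that scaling each of the 7 was at or below -1.01.

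oma-1 and oma-2 code for a closely related pair of CCCH proteins that act together in oocyte maturation and then hold maternal mRNAs silent until the first divisions. At -2 h oma-1 had 6.78, 6.93, 6.99 and 4.1 CPM in replicates 1, 5, 6 and 8, and at 192 h it had 2.6, 2.41, 2.95 and 1.03 CPM. The groups did not overlap, and replicate 8 was the lowest at both times. oma-1 fell by 1.44 on the log2 scale (SE 0.42, FDR 0.00217, edgeR), lower in all 4 replicates. oma-2 had 6.55, 5.23, 5.17 and 4.57 CPM at -2 h and 4.39, 3.57, 7.28 and 4.41 CPM at 192 h, and these groups overlapped. Its log2 fold change was -0.13 (SE 0.25, FDR 0.655).

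Within libraries, the ratio of oma-1 to oma-2 counts compares the courses of the pair free of any scaling. Its mean log2 value was 0.18 (SD 0.28, n = 4) at -2 h, a ratio near 1.13, and -1.16 (SD 0.67) at 192 h, a ratio near 0.447. The highest log2 ratio at 192 h, -0.56, was below the lowest at -2 h, -0.16. An exact two-sided permutation test of the difference of -1.34 gave p = 0.0286, the smallest that 4 against 4 allows, and 0.0857 after adjustment over the 3 pairs compared, so the difference did not pass. At 288 h, which was not in that test, the mean log2 ratio was -1.05 (SD 0.45) with a range of -1.47 to -0.61. Reads with up to 2 genomic locations were kept and placed at 1 of them, so reads from stretches that related genes share could be given to either.

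**Figure D2:**
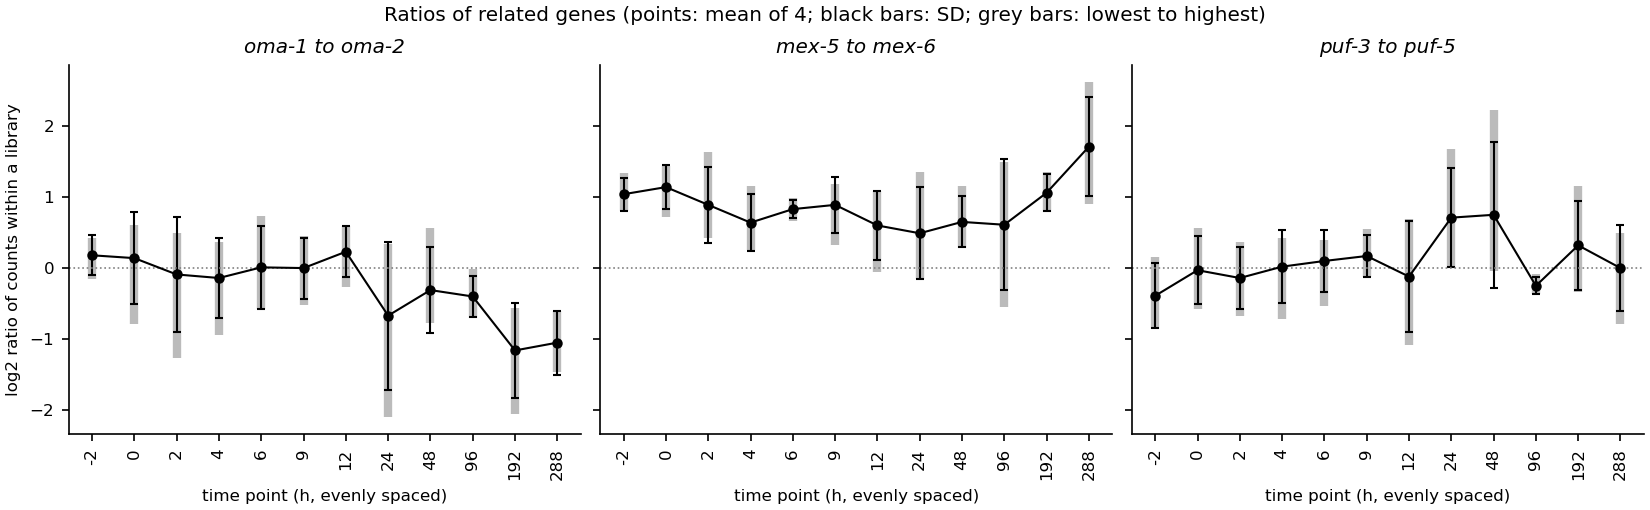
Log2 ratio of the counts of related genes within a library (vertical axis) against time point in hours (evenly spaced), with the mean of 4 replicates as points, the SD as black bars and the range as grey bars. oma-1 to oma-2 goes from 0.18 at -2 h to -1.16 at 192 h, while mex-5 to mex-6 is 1.04 at -2 h, 1.06 at 192 h and 1.71 at 288 h.

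POS-1 is a CCCH protein of the posterior blastomeres, needed there for the fates of germ-line precursors and their sisters. pos-1 had 19.2, 15.1, 17.8 and 16.3 CPM at -2 h and 5.28, 3.49, 3.93 and 4.32 CPM at 192 h in replicates 1, 5, 6 and 8. The groups were far apart, and the log2 fold change was -2.00 (SE 0.36, FDR 3.18e-06), lower in 4 of 4 replicates. Its mean was highest at 0 h, 20.5 CPM ± 6.59, where replicates ranged from 12.8 to 28 CPM. It was 13.8 ± 6.08 CPM at 9 h and 14.5 ± 4.01 CPM at 12 h, then 7.79 ± 5.23 CPM at 24 h and 4.17 ± 1.28 CPM at 96 h.

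MEX-5 and MEX-6 are near-redundant CCCH proteins that set up the anterior side of the embryo and keep germ-line proteins out of it. mex-5 had 16.3, 13.9, 13 and 11 CPM at -2 h and 4.98, 7.47, 5.65 and 3.94 CPM at 192 h. mex-6 had 7.78, 7.16, 7.41 and 4.34 CPM at -2 h and 1.93, 3.99, 2.46 and 2.25 CPM at 192 h. Neither gene's groups overlapped. mex-5 fell by 1.30 on the log2 scale (SE 0.34, FDR 0.000892) and mex-6 by 1.32 (SE 0.32, FDR 0.000331), each lower in 4 of 4 replicates. The log2 ratio of mex-5 to mex-6 was 1.04 (SD 0.23) at -2 h and 1.06 (SD 0.26) at 192 h, and the difference of 0.02 was well within the spread (exact two-sided permutation p = 0.971, adjusted 0.971 over the 3 pairs). Leaving out replicates 1 or 6 turned its sign, to -0.07 and -0.10.

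PIE-1 is a CCCH protein that represses transcription in the germ-line blastomeres. pie-1 had 3.62, 2.54, 3.22 and 1.81 CPM at -2 h and 2.53, 2.24, 1.23 and 1.69 CPM at 192 h. The groups overlapped, and the log2 fold change of -0.53 (SE 0.33, FDR 0.163) did not pass although all 4 replicates were lower. pie-1 shares 24 exon bases with snr-6 on the opposite strand in the current annotation, and the strand setting of the counting was not stated.

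MEX-3, a KH-domain protein, restricts translation of embryonic regulators in the early blastomeres and is also found in the distal germ line. mex-3 was the most abundant of the 10 genes, with 59.3, 56.7, 57.6 and 58.4 CPM at -2 h and 28.5, 30.5, 23.7 and 26.4 CPM at 192 h. The 4 libraries of -2 h were closely alike, although on unscaled library totals the one rich in ribosomal RNA, replicate 6, had 37.7 CPM against 64.6 to 71.4 in the others. mex-3 fell by 1.09 (SE 0.16, FDR 3.66e-08), lower in 4 of 4 replicates and with no overlap.

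SPN-4 binds maternal mRNAs in the early blastomeres together with several of the proteins above, and is needed for spindle orientation and for endoderm fate. spn-4 had 15.2, 12.7, 14 and 9.62 CPM at -2 h and 2.9, 2.16, 3.03 and 2.53 CPM at 192 h. It fell by 2.27 on the log2 scale (SE 0.33, FDR 4.7e-08), 4.82-fold, the largest drop among the 10 genes, in 4 of 4 replicates and with no overlap. Its highest mean was 16.3 CPM ± 3.99 at 0 h. spn-4 shares 8 exon bases with ZC404.15 on the opposite strand.

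PUF-3 and PUF-5 act in oocytes and early embryos to repress stored mRNAs. puf-3 had 2.93, 2.31, 2.94 and 3.15 CPM at -2 h and 4.16, 4.65, 1.8 and 1.78 CPM at 192 h, with the 4 later libraries on both sides of the earlier ones. Its log2 fold change was 0.14 (SE 0.30, FDR 0.699). puf-5 had 4.62, 4.23, 3.36 and 2.84 CPM at -2 h and 3.2, 2.08, 1.72 and 2.25 CPM at 192 h, with 1 library of each time inside the range of the other. It was called lower at a log2 fold change of -0.70 (SE 0.32, FDR 0.0478), but the call was lost in 5 of 12 alternatives, among them without replicate 1 (FDR 0.0561), without replicate 5 (0.198) and without replicate 6 (0.141). The mean level of puf-5 was highest at 96 h, 4.11 CPM ± 0.78, with replicates from 3.08 to 4.82 CPM. The log2 ratio of puf-3 to puf-5 was -0.39 (SD 0.46) at -2 h and 0.32 (SD 0.63) at 192 h, which did not differ beyond the spread (exact two-sided permutation p = 0.143, adjusted 0.214).

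With both groups complete, 6 of the 10 genes had no overlap between -2 h and 192 h, all lower at 192 h, where 31.5% of all genes tested had no overlap in that direction. The calls of oma-1, pos-1, mex-5, mex-6, mex-3 and spn-4 were kept under each of their 12 or 13 alternatives, with FDR values of at most 0.0152.

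**Figure D3:**
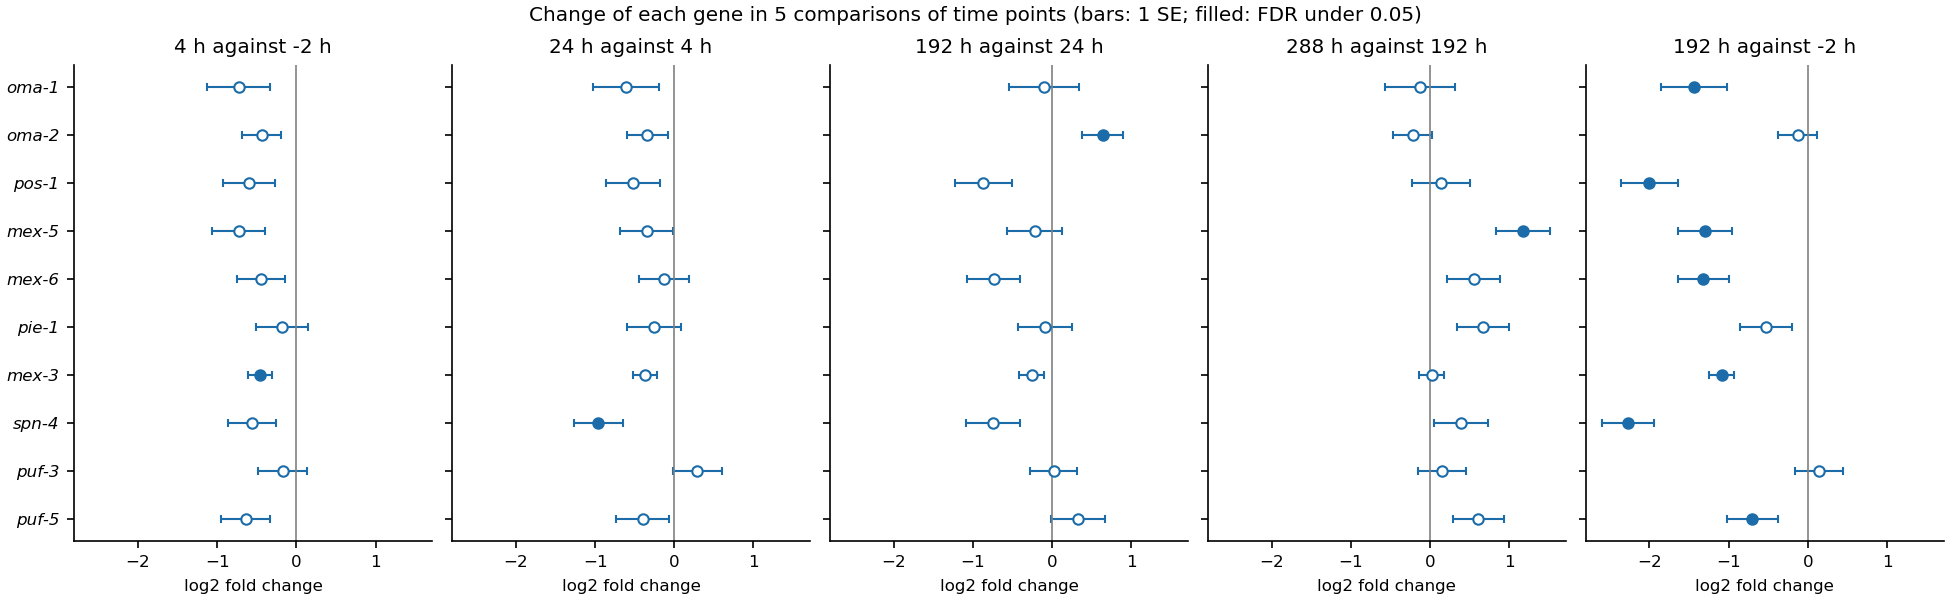
Log2 fold change of each gene (horizontal axis) in 5 comparisons of time points, 1 panel each, with 1 SE as bars and filled points where the FDR was under 0.05, all without the replicate block. In the comparison of 192 h with -2 h, 7 points are filled, all left of 0, while each of the other panels has 1 filled point.

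In each of 4 shorter intervals 1 of the 10 genes was called without the replicate number as a block. Since most replicates were a single culture sampled over time, calls with that block are given where they differ. Successive comparisons share time points with each other and with the one above, so their values are given side by side. From -2 h to 4 h, which spans hatching, the median log2 fold change of the 10 genes was -0.51, against 0.04 for all genes. mex-3 was the 1 gene called, at 33.5 to 51.4 CPM at 4 h (log2 fold change -0.46, SE 0.15, FDR 0.0116), where 43.8% of all genes were called and 20.5% were called lower. With the replicate block, 5 genes were called lower, against 22.8% of all genes: mex-3 (FDR 0.000326), mex-5 (0.00429), pos-1 (0.0127), spn-4 (0.0146) and puf-5 (0.0432). Without the block, the call of mex-3 was lost without replicate 5 (FDR 0.0744) or replicate 8 (FDR 0.0923). In all 10 genes the fold change was below 0, from -0.17 for puf-3 to -0.73 for oma-1 and mex-5, and pos-1 also had no overlap between the groups, though by a margin below rounding (7.31 to 15.1 CPM at 4 h against 15.1 to 19.2 CPM), at an FDR of 0.14. Of all genes tested, 18.3% had no overlap in that direction. Under other scalings the share of calls over all genes that were higher was 50.6 to 60.8%, against 53.2%.

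From 4 h to 24 h the median was -0.36, against 0.02 for all genes. spn-4 was called lower (log2 fold change -0.96, SE 0.31, FDR 0.0118), going from 11.7, 6.91, 11.6 and 4.75 CPM in replicates 1, 5, 6 and 8 at 4 h to 5.4, 3.18, 5.62 and 3.63 CPM at 24 h. It was lower in every replicate, though the ranges overlapped because replicate 8 at 4 h, 4.75 CPM, lay below replicates 1 and 6 at 24 h. Over all genes, 40.0% were called, 21.0% as lower and 19.0% as higher. With the replicate block, spn-4 (FDR 0.000626), mex-3 (0.00653) and pos-1 (0.0443) were all called lower, against 23.6% of all genes. Without the block, the call of spn-4 was lost without replicate 1 (FDR 0.0563) or replicate 6 (FDR 0.0598). Without scaling factors the share of calls over all genes that were higher went from 47.6% to 22.8%.

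From 24 h to 192 h the median was -0.16, against -0.05 for all genes. Without the replicate block oma-2 was the 1 gene called, and as higher, from 3.82, 2.26, 3.07 and 3.5 CPM to 4.39, 3.57, 7.28 and 4.41 CPM in replicates 1, 5, 6 and 8. The log2 fold change was 0.64 (SE 0.26, FDR 0.0456), with the same direction in 4 of 4 replicates and a background of 39.7% of all genes called and 19.4% called higher. The groups overlapped, and the call was lost in 7 of 12 alternatives, including without replicate 5 (FDR 0.122) and without replicate 6 (FDR 0.372), which held the highest value. pos-1 (-0.87, SE 0.36, FDR 0.0517), mex-6 (-0.74, SE 0.33, FDR 0.0688) and spn-4 (-0.75, SE 0.34, FDR 0.0776) did not pass in that fit. With the replicate block 3 genes were called lower, pos-1 (FDR 0.0103), spn-4 (0.0176) and mex-6 (0.0346), and 1 higher, oma-2 (0.025), against 22.7% and 21.7% of all genes. pos-1 was under the threshold in 9 of 13 alternatives, that block included. The groups of spn-4 did not overlap, as did those of 18.7% of all genes in that direction.

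Per the study, many larvae had died by the last time point. From 192 h to 288 h the median was 0.27, against 0.00 for all genes. mex-5 was called higher, from 4.98, 7.47, 5.65 and 3.94 CPM to 16.2, 11.1, 12.6 and 9.71 CPM in replicates 1, 5, 6 and 8. It was higher in every replicate with no overlap, at a log2 fold change of 1.17 (SE 0.34, FDR 0.00814), where 24.7% of all genes were called, 7.39% were called higher and 6.15% had no overlap in that direction. The call was lost without replicate 1 (FDR 0.0685) or replicate 6 (FDR 0.0535). At 288 h mex-5 was at 12.4 CPM ± 2.78, near its 13.6 CPM ± 2.2 of -2 h. mex-6 had 2.6, 5.91, 4.07 and 2.97 CPM at 288 h (log2 fold change 0.55, SE 0.33, FDR 0.237), and the log2 ratio of mex-5 to mex-6 was 1.71 (SD 0.70), which was not tested. Of the other 8 genes, pie-1 (0.67, FDR 0.144) and puf-5 (0.61, FDR 0.172) had the next highest fold changes. The share of calls over all genes that were higher was 29.9% with TMM, 49.5% with upper-quartile factors and 61.5% without scaling factors.

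Over the 12 time point means, pos-1 and spn-4 had the most similar courses of any 2 of the genes (Pearson r = 0.961, a description over 12 points that share their libraries). mex-6 was most like spn-4 (r = 0.932), oma-1 most like pos-1 (0.909), mex-3 most like oma-1 (0.893), and mex-5 and pie-1 most like each other (0.912). puf-3 had no r above 0.447, and oma-2 and puf-5 had 0.617 with each other. Among all 45 pairs r ranged from -0.545 to 0.961 with a median of 0.48. The genes outside the 10 whose course was most like their mean standardized profile were abu-11 (r = 0.944), aho-3 (0.939), sem-2 (0.937), nas-30 (0.936) and toh-1 (0.933), over 12 time points. abu-11 went from 86.4 CPM at -2 h to 1.66 CPM at 192 h and aho-3 from 58.6 to 36.2 CPM, so a like course covers changes of very different size.

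Replicates at 1 time point differed in the summed level of these genes. The largest part of that sum was mex-3, with 51.4 and 33.5 CPM in replicates 1 and 8 at 4 h. At 4 h the 10 genes summed to 118, 77.6, 102 and 64.5 CPM in replicates 1, 5, 6 and 8. At 24 h it was 96.4, 57.2, 63 and 56.3 CPM. Replicate 1 had the highest sum at 8 of 12 time points and replicate 8 the lowest at 10 of 12, with mex-3 highest in replicate 1 at 9 of 12 and lowest in replicate 8 at 9 of 12. mex-5 was much like mex-3, at 8 and 9 of 12, but not every gene followed. puf-3 was highest in replicate 5 at 7 of 12, and pos-1 and spn-4 were lowest in replicate 5 at 6 and 7 of 12. By 192 h the spread was smaller, 50.6 to 62.5 CPM. After each time point's mean was removed, pos-1, spn-4, mex-5 and mex-3 deviated together, with r from 0.607 to 0.806 over the 48 libraries. These are the most abundant of the 10 genes, so their values hold the least counting noise. Over all 45 pairs the median was 0.388 and the range -0.11 to 0.806. These correlations are descriptions, since libraries share a culture, a depth and a scaling factor.

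The same deviations were followed in the marker lists. hch-1 (listed under its other name nas-34, F40E10.1), which codes for the metalloprotease that digests the eggshell at hatching and was the 1 marker of late embryos, deviated with the mean of the 10 genes at r = 0.734 over 48 libraries. Of the 16977 other genes tested, 45 or 0.265% had an r at least that high, hch-1 included. hch-1 stood at 8.41, 1.42, 5.23 and 1.1 CPM in replicates 1, 5, 6 and 8 at 4 h, in the same order as the summed level of the 10 genes. Its mean went from 27 CPM ± 14.8 at -2 h to 4.04 ± 3.46 at 4 h and 1.43 ± 1.3 at 24 h, and to 0.447 ± 0.376 at 192 h, where 1 library had no count (log2 fold change from -2 h -5.86, SE 0.82, FDR 2.11e-08). hch-1 was thus present at 4 h in unequal amounts among the replicates, and the part of unhatched embryos in the levels of the 10 genes was not tested. At -2 h the orders differed: hch-1 was 17, 42.3, 36.8 and 11.7 CPM while the sum of the 10 genes was 142, 127, 131 and 116 CPM.

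**Figure D4:**
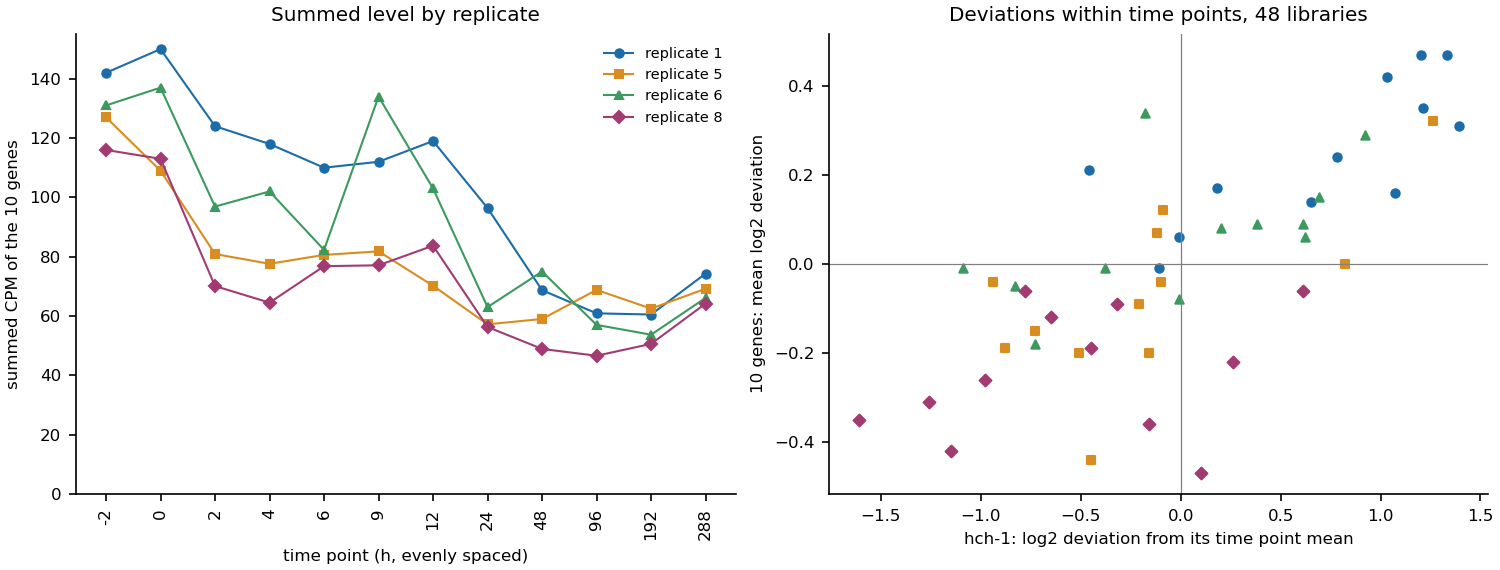
Left, summed level of the 10 genes (CPM, starting at 0) against time point in hours (evenly spaced), 1 line per replicate; right, mean log2 deviation of the 10 genes from their time point means (vertical axis) against that of hch-1 (horizontal axis), 1 point per library. Replicate 1 is above replicate 8 at all 12 time points on the left, and on the right the points rise together with r = 0.734.

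In the other lists the median r with the 10 genes' deviations was 0.379 for 11 genes of primordial germ cells and P granules. It was 0.297 for 12 oocyte and eggshell genes and 0.216 for 7 early zygotic genes. For 28 other maternal RNA regulators and polarity genes it was 0.0757, for 10 markers of larval soma -0.206 and for all other genes -0.0496. Among the named genes with a mean of at least 10 CPM, those highest on this measure were nasp-2 (0.81), unc-59 (0.806), mcm-7 (0.803), ech-1.1 (0.799) and cyb-3 (0.792). They were picked after their values were seen. Next came acn-1 (0.781), cng-1 (0.774), ncbp-1 (0.773), pgp-6 (0.768) and smc-5 (0.768). UNC-59 is a septin, MCM-7 a subunit of the replicative helicase and CYB-3 a mitotic cyclin. Functions of the others are not given here, and a function shared by these genes was not tested.

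The wider list of other maternal RNA regulators held 30 genes that work with or beside the 10. It includes the polarity genes par-1 to par-6, among them par-5 at 585 CPM at -2 h, so it does not describe RNA regulators alone. Of the 28 tested, 9 were higher at 192 h than at -2 h, 7 were lower and 12 did not pass. Over all genes tested, 31.1% were higher and 35.5% lower. The median log2 fold change of the 28 was -0.10. car-1, which codes for an LSm protein of RNA granules, rose from 83.6 CPM ± 4.35 to 266 CPM ± 16.6 (log2 fold change 1.67, SE 0.09, FDR 1.17e-21). zif-1, whose product marks CCCH proteins such as PIE-1 and POS-1 for destruction, rose from 5.37 to 14.8 CPM (1.47, FDR 1.07e-07), and gld-2, a cytoplasmic poly(A) polymerase, from 84.6 to 196 CPM (1.21, FDR 1.63e-09). On the lower side were nos-2, a Nanos protein of primordial germ cells, from 1.3 to 0.209 CPM (-2.63, SE 0.67, FDR 0.000599), gld-1, a KH-domain repressor of translation, from 8.32 to 3.29 CPM (-1.33, FDR 0.00039), and larp-1, a La-related protein, from 550 to 289 CPM (-0.93, FDR 8.98e-10). mex-1, another CCCH gene of the early embryo, was at 6.46 CPM at -2 h and 5.43 CPM at 192 h (FDR 0.366). puf-6 and puf-7 were too low to test, and the fall of nos-2 also rests on levels near the floor.

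The markers of the cells in which such transcripts could lie went in both directions. Of 11 genes of primordial germ cells and P granules, 5 were lower at 192 h, 1 was higher and 5 did not pass, with a median of -0.47. The shares over all genes tested were 35.5% lower and 31.1% higher. glh-1, a Vasa-type helicase, went from 43.6 to 23.8 CPM (-0.87, FDR 0.000622) and meg-1 from 4.92 to 1.41 CPM (-1.79, FDR 0.00311), while csr-1, an Argonaute, rose from 14.4 to 29.3 CPM (1.03, FDR 9.38e-08). Their summed level lay within ranges of 137 to 152 CPM at -2 h and 86.3 to 149 CPM at 192 h. Of 12 oocyte and eggshell genes, 3 were higher and 3 lower, with a median of -0.25. mei-2, a subunit of the meiotic katanin, rose from 1.4 to 7.87 CPM (2.46, FDR 5.18e-09) while its partner mei-1 fell from 29.7 to 16 CPM (-0.90, FDR 1.97e-08). cpg-1 rose from 8.37 to 17.2 CPM (1.03, FDR 2.44e-05) while cpg-2, also a chondroitin proteoglycan of the eggshell, fell from 6.37 to 1.18 CPM (-2.40, FDR 8.2e-10). Their summed level had ranges of 75 to 83 CPM at -2 h and 56.7 to 83.7 CPM at 192 h.

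Of the 10 early zygotic genes, 7 could be tested, with a median log2 fold change of -1.36. The summed level of all 10 was 13.6 to 25.5 CPM at -2 h and 7.13 to 12.2 CPM at 192 h. pes-10, an early embryonic transcript, went from 1.38 ± 0.878 to 0.083 ± 0.166 CPM (-3.86, SE 0.96, FDR 0.000467), so its later level rests on hardly any reads. vet-2 went from 8.92 to 2.93 CPM (-1.57, FDR 0.00015). vet-6 went from 4.53 to 1.68 CPM (-1.43, FDR 0.0107), a call lost without replicate 8 (FDR 0.0689). med-2, an endoderm regulator, rose from 0.548 ± 0.377 CPM, near the floor, to 2.61 ± 0.528 CPM (2.20, FDR 1.82e-05). Thus early embryonic, late embryonic and germ-cell transcripts moved along with the 10 genes in part, where 35.5% of all genes tested were called lower. Such a fall was not particular to them, since most larval soma markers were lower too. How much each contributes to the course of the 10 genes was not tested. In the larval soma list 7 of 10 markers were lower and 2 higher at 192 h. The median was -1.14, against -1.19 for the 10 genes described here. Among the lower ones was dpy-7, an epidermal collagen (58.3 to 1.99 CPM, -4.87, FDR 1.72e-10). The higher ones were elt-7 (5.34 to 14.4 CPM) and pha-4 (138 to 196 CPM).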

How the data were processed

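The authors mapped single-end reads of 50 bases to the WS210 genome release with bowtie (up to 2 locations per read) and counted reads per gene with HTSeq. Versions and strand setting are not given in the sources used here. The deposited values were raw counts, 1 table per library, each with 44968 genes and 5 lines at its end that tally unassigned reads. Those lines held 21.1 to 29.7% of reads and were left out of totals. Gene symbols and exon lengths came from RefSeq and Ensembl annotation of WBcel235, joined by sequence name. Overlaps between genes were taken from that annotation, whose build is not that of the files, and no coordinates are printed.

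Genes with over 1 CPM in at least 4 libraries were tested with edgeR 4.0.16 in R 4.3.3, with a common biological coefficient of variation of 0.188: a likelihood ratio test over time as in the study, and quasi-likelihood F tests of 5 comparisons in a fit of all 48 libraries, Benjamini-Hochberg adjusted over all 16987 genes, with SE taken as the log2 fold change over the square root of F. Ratios of related genes (0.5 added to each count) had exact permutation tests. Deviations were of log2(CPM + 0.5). The scripts were tested on simulated data. Alternatives were other scalings, filters, DESeq2 1.42.0, each replicate left out, the replicate number as a block, the 2 libraries rich in ribosomal RNA left out, and fits of 2 time points alone. Per the study's methods 3 of 4 replicates were each a single culture over time, so a replicate number was taken to pair libraries. After group means were removed, libraries with the same number correlated at r = 0.161 to 0.338 (24 h against 4 h), 0.126 to 0.6 (288 h against 192 h), 0.0622 to 0.485 (192 h against 24 h), -0.0399 to 0.178 (4 h against -2 h) and -0.171 to 0.0831 (192 h against -2 h). Named were the 10 genes, up to 3 of the largest calls in each direction per list, the 5 most similar courses and the nearest of the 10 for each. The 10 genes and all lists were chosen with earlier results of these data known. No molecular identifiers were used, so PCR copies among the 6 to 858 counts could not be told from separate molecules. The SD and SE given also hold differences between replicates.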

Additional observations from a re-analysis of the deposited data

Results flagged for a closer look

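Each of the 10 genes was examined at each of 12 time points for a replicate far from the other 3, by Dixon's test at its usual critical value. Of 120 groups, 3 were set apart, and chance alone sets apart about 1 in 20. oma-1 at -2 h was 4.1 CPM in replicate 8, against 6.78 to 6.99 CPM in the others. mex-6 at 96 h was 6.2 CPM in replicate 5, against 2.07 to 2.6 CPM in the others. mex-3 at 6 h was 53.4 CPM in replicate 1, against 38.5 to 40.4 CPM in the others.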

How the results depend on the processing

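The falls of oma-1, pos-1, mex-5, mex-6, mex-3 and spn-4 from -2 h to 192 h kept their direction and call under each alternative that tested them. A filter of a mean CPM of at least 10 keeps 2 of the 10 genes by its construction: 2 were then called over time, 2 at 192 h against -2 h and 0 at 288 h against 192 h, and over all genes 8209 in place of 14427 and 7030 in place of 11326. Of the 10 genes, the number called at 4 h against -2 h was 1, and 0 with upper-quartile factors, 0 without scaling factors, 3 with libraries of these 2 time points alone, and 0 to 2 leaving out a replicate. At 24 h against 4 h it was 1, 2 without scaling factors and 0 to 1 leaving out a replicate (0 without replicate 6). At 192 h against 24 h it was 1, 2 with DESeq2 and 0 to 2 leaving out a replicate. At 288 h against 192 h it was 1, and 0 without replicate 1 or 6. Over all genes, the number called lower at 4 h against -2 h was 3480, 3085 with upper-quartile factors and 2748 without scaling factors. At 24 h against 4 h it was 3560, and 5303 without scaling factors. Shares over all genes are not given here for most other settings, so shifts of the 10 genes cannot be told from shifts of all genes there. The cause of these shifts was not tested.

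With the replicate number as a block, 5 of the 10 genes were called at 4 h against -2 h, 3 at 24 h against 4 h and 4 at 192 h against 24 h. At 4 h against -2 h 1 of 4 replicates correlated best with its own number, and in the other 2 comparisons 4 of 4 did. The block turned puf-3 at 192 h against 24 h to -0.01 and changed no call of the 10 genes in 192 h against -2 h or 288 h against 192 h.

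The log2 ratio of mex-5 to mex-6, 0.02 higher at 192 h, was -0.06 without the 2 libraries rich in ribosomal RNA and -0.10 to 0.21 leaving out a replicate. Other changes of sign were all of log2 fold changes that had not been called. Without scaling factors, oma-1 (0.07) and oma-2 (0.00) at 288 h against 192 h and puf-3 at 192 h against 24 h (-0.07) and against -2 h (-0.12) changed sign. So did puf-3 at 192 h against 24 h with upper-quartile factors (-0.01) and without the libraries rich in ribosomal RNA (-0.06), pie-1 there without those libraries (0.10), and mex-3 at 288 h against 192 h without a filter (-0.03). Leaving out 1 replicate gave ranges across 0 for oma-1 (-0.57 to 0.42), mex-5 (-0.54 to 0.21), pie-1 (-0.36 to 0.16) and puf-3 (-0.15 to 0.13) at 192 h against 24 h. At 288 h against 192 h these were oma-1 (-0.58 to 0.08), oma-2 (-0.35 to 0.12), pos-1 (-0.07 to 0.35), mex-3 (-0.01 to 0.13) and puf-3 (-0.13 to 0.42). At 192 h against -2 h they were oma-2 (-0.40 to 0.03) and puf-3 (-0.21 to 0.38), at 24 h against 4 h mex-6 (-0.39 to 0.20) and pie-1 (-0.57 to 0.21), and at 4 h against -2 h pie-1 (-0.38 to 0.00) and puf-3 (-0.40 to 0.02). With 13 to 68 counts of puf-3 in a library, small changes of that gene were not detectable at this depth.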
